A study of Mus musculus with 24 samples.

Results

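The 10 genes described here were chosen as genes of heat-producing fat. They were followed in polyA RNA-seq of mouse thoracic aorta, a tissue sample that carries some of the fat lying around the vessel. They are Ucp1, Cidea, Ppargc1a, Dio2, Cox8b, Cox7a1, Elovl3, Cpt1b, Prdm16 and Pdk4, matched by symbol to 10 of the 25941 genes in the deposited count table. The mice were wildtype male C57BL/6 adults aged 10 to 12 weeks, kept on a 12 h light and 12 h dark schedule, and their aortas were taken at zeitgeber time 11, in hours from lights on. For 3 weeks 8 libraries' mice ate chow with celecoxib at 100 mg/kg/day, 8 ate chow with rofecoxib at 50 mg/kg/day, and 8 ate the same regular chow with no added drug. Both drugs are non-steroidal anti-inflammatory agents selective for cyclooxygenase-2. Both are diaryl heterocycles, celecoxib a pyrazole with a sulfonamide group and rofecoxib a furanone with a methyl sulfone group. Their doses differed, so a contrast between them compares 2 diets and not the compounds at a matched dose. Libraries of a group are described as biological replicates, but the labels do not tie each to a mouse, so p-values may measure only the spread between these samples.

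Brown and beige adipocytes burn fatty acids to make heat. Noradrenaline from sympathetic nerves acts on beta-adrenergic receptors, cyclic AMP rises, fatty acids are released from lipid droplets, and the inner-membrane carrier UCP1 lets protons return to the mitochondrial matrix without making ATP. Fat around the thoracic aorta of mice is known to resemble brown fat, and the genes below cover its uncoupling protein, its lipid droplets and respiratory chain, its fuel use, its local thyroid hormone supply and its transcriptional regulators.

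The stretch just before the transcription start is shown for 3 of the genes: Ucp1, the defining gene of the cell type, Ppargc1a, the gene whose level differed between the drug diets, and Dio2, which holds a complete cyclic AMP response element. Each line gives the 250 bases before the start, 5′ to 3′ on the gene's strand, from RefSeq on GRCm38.p6. The windows are chr8:83290098-83290347 on the plus strand for Ucp1, chr5:51567726-51567975 on the minus strand for Ppargc1a and chr12:90739039-90739288 on the minus strand for Dio2. Capitals mark the half-site of the cyclic AMP response element (TGACG, or CGTCA on the other strand) and the nuclear receptor half-site (AGGTCA, or TGACCT on the other strand).
Ucp1: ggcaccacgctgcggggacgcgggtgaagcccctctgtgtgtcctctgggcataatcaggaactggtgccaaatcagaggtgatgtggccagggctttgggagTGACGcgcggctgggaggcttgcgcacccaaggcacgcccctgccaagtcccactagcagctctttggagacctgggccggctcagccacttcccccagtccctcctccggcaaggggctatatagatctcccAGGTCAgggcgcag
Ppargc1a: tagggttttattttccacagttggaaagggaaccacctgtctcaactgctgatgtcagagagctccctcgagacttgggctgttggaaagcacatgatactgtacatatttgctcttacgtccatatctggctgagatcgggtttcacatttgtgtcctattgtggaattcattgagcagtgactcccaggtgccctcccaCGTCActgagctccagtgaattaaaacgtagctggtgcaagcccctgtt
Dio2: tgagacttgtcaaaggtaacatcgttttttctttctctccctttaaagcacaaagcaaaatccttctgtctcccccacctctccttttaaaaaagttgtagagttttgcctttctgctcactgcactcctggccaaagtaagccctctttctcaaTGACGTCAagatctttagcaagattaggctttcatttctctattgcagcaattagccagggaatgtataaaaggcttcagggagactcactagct

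The half-site began 147 bases before the start in Ucp1 and 49 bases before it in Ppargc1a. In Dio2 the complete 8-base element TGACGTCA, which is a pair of overlapping half-sites, began 95 bases before the start. Of the 10 genes, 7 had an entry that was searched: these 3 and Cox8b, Cox7a1, Prdm16 and Pdk4. The half-site was found in 3 of the 7 windows, against 17.8% of 32851 promoter windows of the same length, and the complete element in 1 of the 7, against 1.55%. The nuclear receptor half-site was found in the Ucp1 window, 14 bases before the start, against 14.0% of all windows. A direct repeat of that half-site with 1 base between, the form bound by PPAR receptors, was in none of the 7 windows and in 0.0335% of all. The TATA box letters TATAAA were found in the Dio2 window alone of the 7, 30 bases before the start, against 12.4% of all windows. These are matches of letters on either strand within a short window and say nothing of binding.

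Counts per library came to between 21652432 and 21687906. The step that brought them so close is not known, so the depth of sequencing behind each library may differ. Levels are given as CPM, counts scaled to library size after TMM normalisation, as mean ± SD over 8 libraries or as lowest, median and highest. The deposited table sits on mm9, where Ucp1 spans chr8:85814045-85822557, Ppargc1a chr5:51845286-51959166, Dio2 chr12:91962792-91977080, Prdm16 chr4:153690032-154011184 and Pdk4 chr6:5433149-5446511. Cpt1b (chr15:89246634-89256496) lies inside the span the table gives to Chkb (1313 to 1982 counts per library), and Cox8b (chr7:148084640-148086547) overlaps the end of Psmd13 (1542 to 1803 counts). The sources used here do not state whether counting used strand, so the levels of Cpt1b and Cox8b are uncertain to the extent that reads were split with these neighbours. No library of a group repeated another within sampling noise: the mean chi-square per gene between 2 libraries of a group was 7.09 at the least.

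The tissue held adipocyte RNA in every library. Adipoq, the adipocyte hormone adiponectin, had medians of 129.6, 136.2 and 105.5 CPM in the control, celecoxib and rofecoxib groups, and its lowest library still held 49.1 CPM. The sum of 18 general adipocyte markers ran from 2160 to 12669 CPM in controls, 2647 to 5123 CPM with celecoxib and 2789 to 6778 CPM with rofecoxib. The beta-3 adrenergic receptor gene Adrb3, not listed here as a brown fat marker, was at 6.02 to 91.0 CPM in controls. Of the brown and beige markers outside the 10 genes, the potassium channel gene Kcnk3 (10.4 to 87.2 CPM in controls) was present. So was the transcription factor gene Ebf2 (3.72 to 12.0 CPM). Zic1, a marker of classical brown depots, stayed at or under 5 counts in every library, Bmp8b at or under 4 and Lhx8 at or under 12. Smooth muscle genes were far higher, with Myh11 at a median of 10232 CPM in controls.

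The library called control 6 stood apart for fat. Its general adipocyte sum was 12669 CPM against a control median of 4376 CPM, and its brown and beige marker sum was 1683 CPM against 728.4 CPM. It also had the lowest smooth muscle sum of the controls, 38366 CPM against a median of 43762 CPM. In bulk tissue, more cells of a type and more RNA per cell cannot be told apart. The counts for the 10 genes below are therefore given with all 24 libraries and again without control 6, as are single values that it moves.

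Per kilobase of exon, the 10 genes spanned a wide range. In controls the medians were 118.8 CPM per kb for Cox8b, 95.3 for Cidea, 85.0 for Ucp1, 29.9 for Pdk4, 24.97 for Cox7a1, 12.2 for Prdm16, 8.82 for Dio2, 1.64 for Ppargc1a, 0.693 for Elovl3 and 0.599 for Cpt1b. Between neighbours in this order the mean difference within a library was larger than its SD over the 8 controls for Cox8b over Cidea (log2 difference 0.24 ± 0.17), Ucp1 over Pdk4 (1.46 ± 0.92), Dio2 over Ppargc1a (2.49 ± 0.30) and Ppargc1a over Elovl3 (0.95 ± 0.91). The other neighbours did not differ beyond their spread, and Cidea stood above Ucp1 in 4 of 8 controls. The place of Ucp1 among 14075 genes ranked per kilobase ran from 40 in control 6 to 8346 in the fourth celecoxib library, and that of Ppargc1a from 8101 to 11953.

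**Figure D1:**
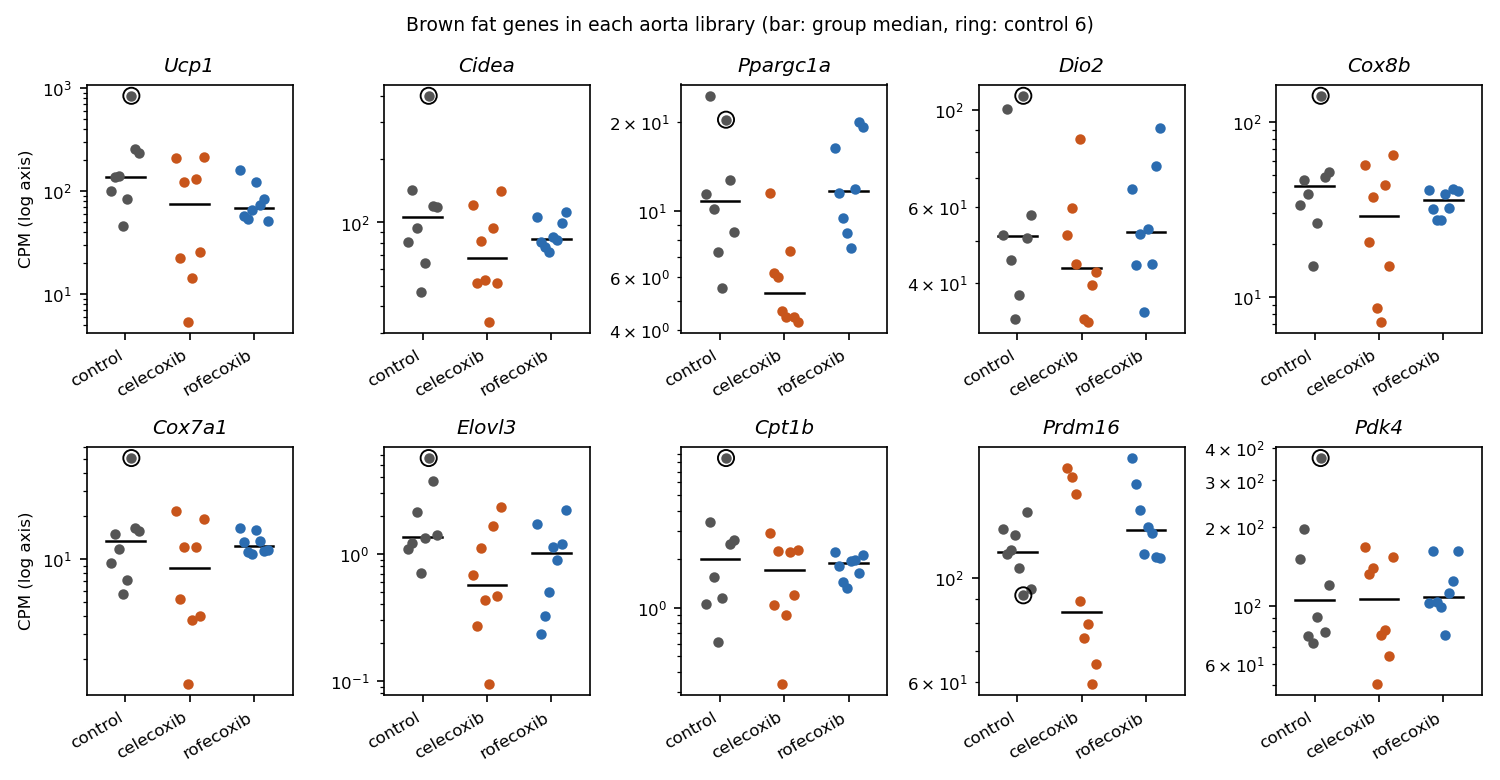
CPM of each of the 10 genes on a log axis, 1 point per library, in the control, celecoxib and rofecoxib groups, with the group median as a bar and control 6 ringed. Control 6 is the highest control for 8 of the 10 genes, the celecoxib libraries spread widest for Ucp1, Elovl3 and Cox7a1, and the celecoxib libraries lie low for Ppargc1a.

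Ucp1 encodes the uncoupling protein itself. It was at a median of 139.1 CPM in controls (45.8 to 843), 74.8 CPM with celecoxib (5.44 to 217) and 69.4 CPM with rofecoxib (51.9 to 161). Control 6 held the 843 CPM and the next control 254 CPM, and all 3 groups overlapped. The celecoxib libraries lay in 2 ranges with a gap between them: libraries 1, 3, 6 and 8 held 212, 124, 132 and 217 CPM, and libraries 2, 4, 5 and 7 held 22.6, 5.44, 14.4 and 25.5 CPM. No control or rofecoxib library was below 45.8 CPM. The highest celecoxib library was 39.8 times the lowest, against 18.4 times in controls, 5.56 times in controls without control 6, and 3.10 times with rofecoxib.

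Cidea encodes a lipid droplet protein that is high in brown fat. Its medians were 106.3 CPM in controls (46.8 to 399), 67.8 CPM with celecoxib (33.8 to 141) and 83.6 CPM with rofecoxib (72.3 to 112). The rofecoxib libraries lay within a 1.55-fold range and inside the range of the controls. In the celecoxib group libraries 2, 4, 5 and 7, the ones low for Ucp1, were at 33.8 to 53.5 CPM, and the other 4 at 82.1 CPM or more.

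Cox8b and Cox7a1 encode the isoforms of cytochrome c oxidase subunits found in muscle and brown fat. Cox8b had medians of 42.8 CPM in controls (15.01 to 141), 28.8 CPM with celecoxib (7.19 to 64.9) and 35.5 CPM with rofecoxib (27.4 to 41.5). Cox7a1 had medians of 13.4 CPM in controls (5.69 to 50.6), 8.64 CPM with celecoxib (1.35 to 21.74) and 12.4 CPM with rofecoxib (10.9 to 16.4). For both genes control 6 was the highest of all 24 libraries, and the 4 lowest celecoxib libraries were again 2, 4, 5 and 7. The highest celecoxib library was 16.1 times the lowest for Cox7a1 and 9.02 times for Cox8b, while the rofecoxib libraries stayed within 1.51-fold for each.

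Fuel use was covered by 3 genes. Elovl3, a fatty acid elongase induced in brown fat, had medians of 1.37 CPM in controls (0.706 to 5.69), 0.574 CPM with celecoxib (0.0947 to 2.34) and 1.02 CPM with rofecoxib (0.233 to 2.22). Cpt1b, the muscle and brown fat form of carnitine palmitoyltransferase 1, had medians of 2.02 CPM in controls (0.612 to 8.51), 1.71 CPM with celecoxib (0.337 to 2.92) and 1.89 CPM with rofecoxib (1.32 to 2.21). Both rest on few reads: the fifth celecoxib library held 2 counts of Elovl3 (95% Poisson interval 0.242 to 7.22) and the fourth held 7 of Cpt1b (2.81 to 14.4), intervals that cover counting error only. For both genes celecoxib libraries 2, 4, 5 and 7 were the lowest 4 of their group. Pdk4, the kinase that shuts off pyruvate dehydrogenase and spares glucose, had medians of 105.1 CPM in controls (72.4 to 365), 106.6 CPM with celecoxib (50.4 to 167) and 107.6 CPM with rofecoxib (77.8 to 161). Its medians were close in the 3 groups, control 6 was its highest library, and celecoxib library 2, low for Ucp1, was at 132 CPM.

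The repeated set of low celecoxib libraries was picked out after the values were seen, and no test was made of it. In those libraries the general adipocyte sums were 5123 CPM in library 2, 4017 CPM in 4, 2647 CPM in 5 and 4200 CPM in 7. Library 2 had the highest sum of its group although its Ucp1 was at 22.6 CPM, and library 5 had the lowest. In libraries 1, 3, 6 and 8 the sums were 4342, 3409, 4795 and 4864 CPM. Counts of Ucp1 over those of Cidea, a ratio free of depth, ran from 0.102 to 1.76 with celecoxib, from 0.463 to 1.51 with rofecoxib and from 0.964 to 2.12 in controls, where control 6 stood at 2.11.

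Dio2, the deiodinase that makes active thyroid hormone inside the cell, had medians of 51.3 CPM in controls (33.0 to 108), 43.4 CPM with celecoxib (32.6 to 86.0) and 52.5 CPM with rofecoxib (34.3 to 90.9). Its highest celecoxib library was the fourth, the lowest for Ucp1, and the groups overlapped over nearly their whole ranges. Prdm16, a coregulator that holds brown and beige fat identity, had medians of 113.6 CPM in controls (91.8 to 138), 84.7 CPM with celecoxib (59.5 to 171) and 126.2 CPM with rofecoxib (110.2 to 179.6). Control 6, with the highest general adipocyte sum of the controls, was the lowest control for Prdm16. Which cells the Prdm16 RNA came from was not tested. The controls lay within a 1.501-fold range, while in the celecoxib group libraries 1 to 3 were at 151 to 171 CPM and libraries 4 to 8 at 59.5 to 89.5 CPM.

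Ppargc1a encodes PGC-1alpha, the coactivator that drives mitochondrial genes and Ucp1. The celecoxib libraries held 11.6, 6.18, 6.03, 4.62, 4.40, 7.32, 4.40 and 4.26 CPM. The rofecoxib libraries held 16.3, 11.5, 9.47, 8.43, 7.52, 11.8, 20.0 and 19.2 CPM, and the controls 11.4, 24.4, 10.2, 7.29, 5.51, 20.3, 12.7 and 8.483 CPM. All 8 celecoxib libraries were below the rofecoxib median of 11.7 CPM. The ranges overlapped, since the first celecoxib library was above 4 rofecoxib libraries and above 5 controls. Celecoxib 1 apart, each celecoxib library was below the lowest rofecoxib library.

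**Figure D2:**
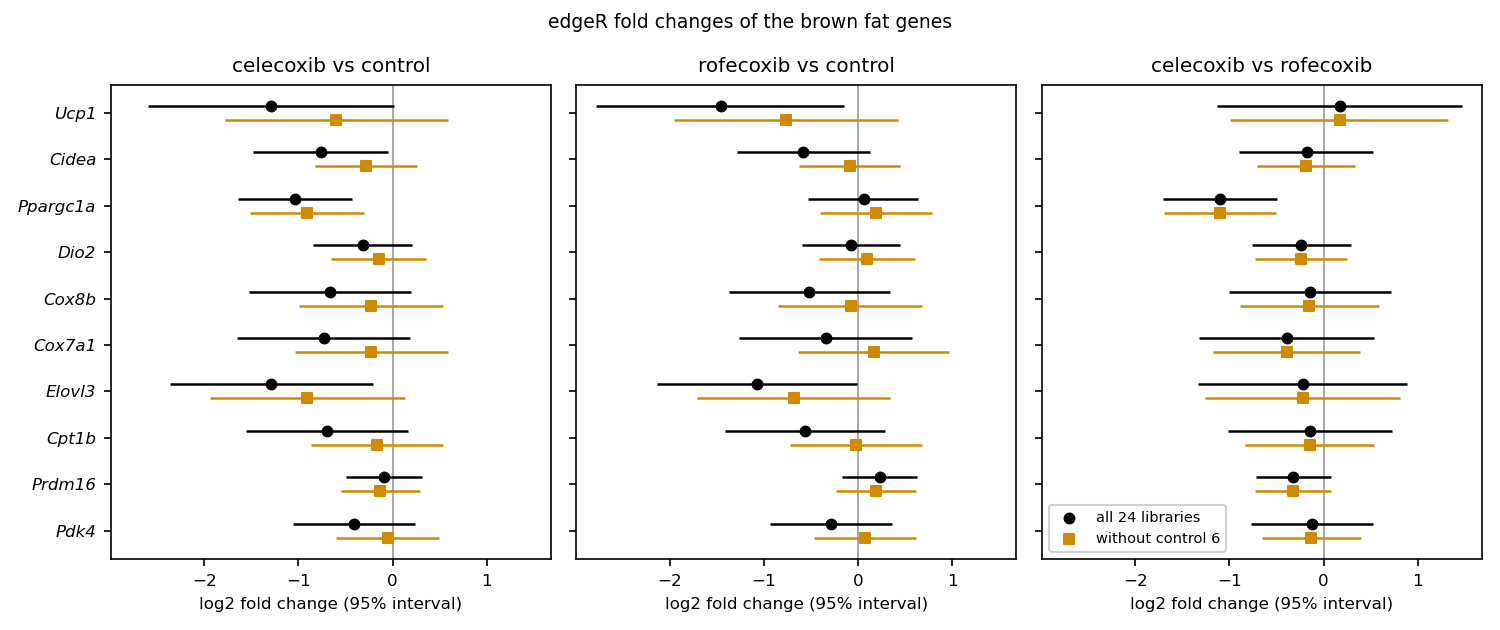
Log2 fold changes of the 10 genes with 95% intervals in the 3 comparisons, from edgeR, with all 24 libraries (black circles) and without control 6 (orange squares). Without control 6 most estimates against control move toward 0. The interval of Ppargc1a between the drug diets, a contrast that holds no control library, lies below 0 in both fits.

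With celecoxib against control, none of the 10 genes was called by edgeR's quasi-likelihood test at an adjusted p under 0.05, against 1.41% of the 14451 genes tested (0.913% higher and 0.498% lower). All 10 estimates were below 0, with a median log2 fold change of -0.72 against -0.01 over all genes. In edgeR 3 of the 10 had an unadjusted p under 0.05, against 2504 of the 14451 genes tested. Without control 6 all 10 estimates were still below 0, their median was -0.23, none was called and 1 had an unadjusted p under 0.05. DESeq2 called 1, Ppargc1a.

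Ppargc1a averaged 6.09 ± 2.468 CPM with celecoxib and 12.5 ± 6.56 CPM in controls, a log2 fold change of -1.04 ± 0.29 (SE, 95% interval -1.64 to -0.43). All 8 celecoxib libraries were below this control mean and 7 of 8 below the control median, and edgeR's adjusted p of 0.0712 did not pass. Without control 6 the control mean was 11.4 CPM, and the first celecoxib library, at 11.6 CPM, was above it. The adjusted p was 0.102 without control 6, 0.0279 without the first celecoxib library and 0.0370 without the fifth control, and DESeq2 gave 0.0135. The call therefore depends on the tool and on single libraries: it was made in 4 of 32 alternatives, over which the adjusted p ran from 0.0135 to 0.164.

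Ucp1 averaged 94.1 ± 88.9 CPM with celecoxib against 230.1 ± 257.6 CPM in controls, a log2 fold change of -1.29 ± 0.63 (95% interval -2.60 to 0.02) with an edgeR adjusted p of 0.296. Without control 6 the control mean was 142.5 ± 76.5 CPM (n = 7), the estimate -0.60 (-1.78 to 0.59) and the adjusted p 0.613. Elovl3 gave -1.29 ± 0.52 (adjusted p 0.204) and -0.91 without control 6, and Cidea -0.76 ± 0.35 (adjusted p 0.252) and -0.28 without it. Cox7a1 went from -0.73 to -0.23, Cpt1b from -0.70 to -0.16, Cox8b from -0.66 to -0.23 and Pdk4 from -0.41 to -0.05 when control 6 was left out, none of them called by edgeR in either fit. Dio2 (-0.31) and Prdm16 (-0.09) were nearest to 0. The interval of Ucp1 is wide in both fits, so these data limit its change little.

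With rofecoxib against control, none of the 10 genes was called by edgeR, against 5.3% of all genes tested (2.43% higher and 2.87% lower). DESeq2 also called none, 8 estimates were below 0, and the median was -0.43. In edgeR 2 of the 10 had an unadjusted p under 0.05, against 3916 of the 14451 genes tested. Without control 6, 5 estimates were above 0 and 5 below, their median was 0.03, and none had an unadjusted p under 0.05. Ucp1 averaged 83.6 ± 38.7 CPM against 230.1 ± 257.6 CPM, a log2 fold change of -1.46 ± 0.64 (95% interval -2.78 to -0.15) with an edgeR adjusted p of 0.143, and -0.77 (-1.95 to 0.42, adjusted p 0.430) without control 6. Of the 8 rofecoxib libraries 7 were below the control median of 139.1 CPM. Elovl3 gave -1.07 ± 0.51 (adjusted p 0.182) and -0.68 without control 6. Ppargc1a averaged 13.0 ± 4.87 CPM against 12.5 ± 6.56 CPM, a log2 fold change of 0.06 ± 0.28 (95% interval -0.53 to 0.64, edgeR adjusted p 0.917), and 0.19 without control 6. Cox7a1, Dio2 and Pdk4 changed sign without control 6, from -0.34 to 0.17, from -0.08 to 0.10 and from -0.29 to 0.07. Both comparisons against control share the 8 control libraries, so control 6 enters both.

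Between the drug diets, 1 of the 10 genes was called, Ppargc1a, against 22.7% of all genes tested (11.5% higher and 11.2% lower). A share of 1 in 10 is not above that background, so the count says nothing about the genes as a group. Of the 10 estimates 9 were below 0 for celecoxib against rofecoxib, with a median of -0.20. Ppargc1a averaged 6.09 ± 2.468 CPM with celecoxib and 13.0 ± 4.87 CPM with rofecoxib, a log2 fold change of -1.10 ± 0.29 (95% interval -1.70 to -0.49) and an edgeR adjusted p of 0.0119. It was lower in 8 of 8 celecoxib libraries than the rofecoxib mean. The call was made in all 32 alternatives, with adjusted p from 0.00152 to 0.0343, the highest after correction for transcript GC content, where the estimate was -0.95. Control libraries are not in this contrast, so the alternatives that left out a control library bear on it only through the shared fit. Without control 6 the estimate therefore stayed at -1.10, with an edgeR adjusted p of 0.00930.

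For the other 9 genes the difference between the drug diets was not called, and the intervals bound it. For Prdm16 it was -0.32 (95% interval -0.72 to 0.08), for Dio2 -0.24 (-0.76 to 0.29), for Cidea -0.18 (-0.90 to 0.53) and for Pdk4 -0.12 (-0.77 to 0.53). The intervals were wider for Cox8b at -0.14 (-1.0 to 0.72), Cpt1b at -0.14 (-1.01 to 0.73), Cox7a1 at -0.39 (-1.32 to 0.54), Elovl3 at -0.22 (-1.33 to 0.89) and Ucp1 at 0.17 ± 0.63 (SE). These missed calls do not show that the diets act alike on the 9 genes.

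Setting each gene against the mean log2 CPM of the 18 general adipocyte markers of the same library relates it to the adipocyte RNA in that sample. By two-sided exact permutation tests of 8 libraries against 8, adjusted over 30 tests, 1 passed: Ppargc1a between the drug diets. It stood at -3.94 ± 0.54 on the log2 scale with celecoxib and at -2.78 ± 0.53 with rofecoxib, a difference of -1.16 with an exact p of 0.000622 (adjusted 0.0186). Against control the same measure of Ppargc1a differed by -0.75 with celecoxib (exact p 0.0143, adjusted 0.214) and by 0.41 with rofecoxib (exact p 0.139, adjusted 0.394). Ucp1 set against the same markers was at 0.61 ± 0.60 in controls, -0.87 ± 1.92 with celecoxib and -0.14 ± 0.93 with rofecoxib. Its exact p was 0.0577 with celecoxib and 0.0777 with rofecoxib (adjusted 0.394 for both). On this scale control 6 was still the highest control, at 1.58, and the seventh control was next at 1.21.

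**Figure D3:**
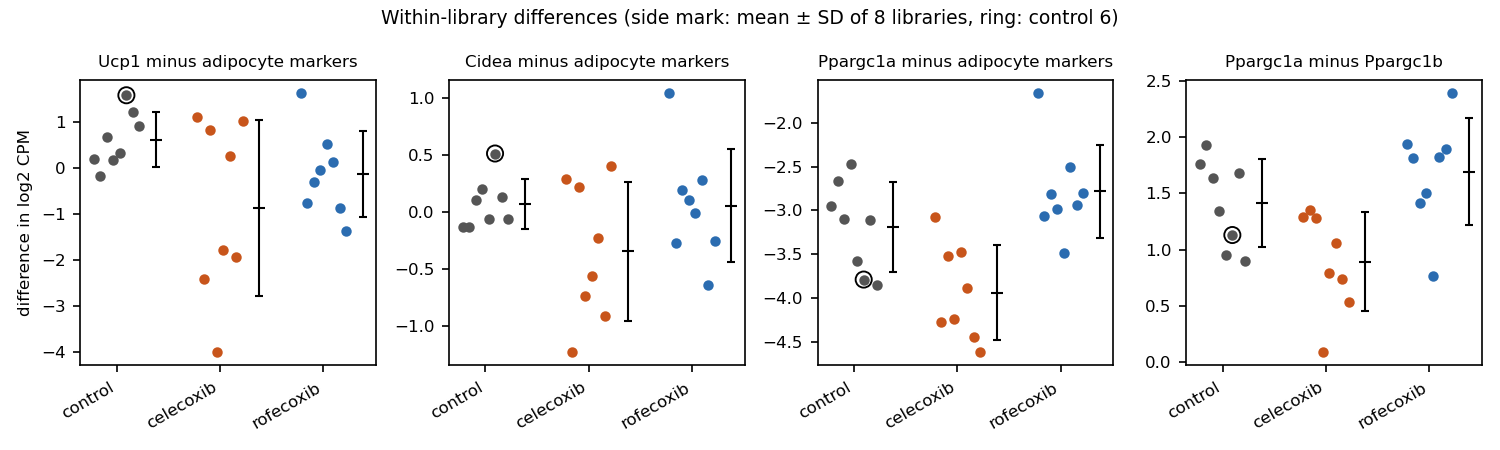
Log2 CPM of Ucp1, Cidea and Ppargc1a minus the mean log2 CPM of 18 general adipocyte markers in the same library, and of Ppargc1a minus Ppargc1b, 1 point per library, with mean ± SD of 8 libraries beside each group and control 6 ringed. For Ppargc1a the celecoxib mean of -3.94 lies below the rofecoxib mean of -2.78, and for Ucp1 the celecoxib SD of 1.92 is the widest.

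Of the 10 genes 7 were also set against a close relative chosen as more broadly expressed, in 21 exact permutation tests. None of the 21 passed adjustment, while 3 had an unadjusted p under 0.05. The nearest was Ppargc1a over Ppargc1b, its sister coactivator, at 0.89 ± 0.44 with celecoxib and 1.69 ± 0.48 with rofecoxib on the log2 scale, a difference of -0.80 with an exact p of 0.00389 (adjusted 0.0816). Against control the same ratio differed by -0.52 with celecoxib (exact p 0.0242, adjusted 0.255). Ucp1 over Ucp2, the relative found in many tissues, differed by -1.80 between celecoxib and control (exact p 0.0429, adjusted 0.3002). Without control 6 that difference was -1.50 (exact p 0.0852). For Cox8b over Cox8a and Cox7a1 over Cox7a2 the differences ran from -0.76 to 0.01 in the 3 comparisons, with adjusted p of 0.477 or more. Elovl6, the relative of Elovl3, was not a steady reference. With celecoxib against control its own log2 fold change was -1.74 (edgeR adjusted p 0.0526), and -0.93 without control 6. The difference of -0.05 in Elovl3 over Elovl6 there does not show that Elovl3 was unchanged.

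With all libraries pooled, some of the 10 genes followed Ucp1 closely and others less or not, and this varied between groups. After each group's mean was taken out, the log2 CPM of Ucp1 over 24 libraries correlated with that of Cox7a1 (r = 0.97, rho = 0.96), Cox8b (r = 0.94, rho = 0.93), Cpt1b (r = 0.89, rho = 0.86), Cidea (r = 0.83, rho = 0.87) and Elovl3 (r = 0.72, rho = 0.76). Of 39 relations computed, these 5 had permutation p-values from 1e-05, the smallest that 100000 permutations can give, to 0.000210, and adjusted p of 0.00136 or less for r. Without control 6 they stood at 0.97, 0.93, 0.87, 0.81 and 0.67, and without the 2 libraries farthest in Ucp1, celecoxib 4 and control 6, at 0.96, 0.93, 0.83, 0.88 and 0.74. Within groups Cox7a1 gave r = 0.98 in controls, 0.99 with celecoxib and 0.82 with rofecoxib, while Cidea gave 0.95, 0.88 and 0.33. With rofecoxib Cox8b, Elovl3 and Cpt1b gave 0.55, 0.48 and 0.45, against 0.77 or more in each of the other groups. The points share their libraries, and the part that the makeup of a library has in these relations was not tested.

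Pdk4 followed Ucp1 less closely (r = 0.59, rho = 0.46, permutation p 0.00869 and 0.0508, adjusted 0.0282 and 0.156), and without control 6 its r of 0.47 did not pass (adjusted p 0.193). Within groups Pdk4 gave r = 0.68 in controls, 0.77 with celecoxib and -0.60 with rofecoxib. Over all libraries Ppargc1a gave r = 0.43 and rho = 0.39 (permutation p 0.0342 and 0.0604, adjusted 0.0833 and 0.156). Prdm16 gave r = 0.12 and rho = 0.03 (adjusted permutation p 0.805 and 0.970). Dio2 gave r = 0.09 and rho = 0.21 (adjusted permutation p 0.805 and 0.518). Within groups Ppargc1a gave r = 0.59 in controls, 0.53 with celecoxib and 0.02 with rofecoxib. In the same order Dio2 gave 0.75, -0.45 and 0.13, and Prdm16 -0.5, 0.21 and 0.44. With the general adipocyte markers 8 of the 10 genes passed for r over all 24 libraries, all but Ucp1 and Prdm16, and 3 of them, Cidea, Dio2 and Cox8b, also without control 6. Dio2 followed these markers (r = 0.70, rho = 0.58, permutation p 0.000470 and 0.00636, adjusted 0.00229 and 0.0310; r = 0.61 without control 6), as did Cidea (r = 0.74, rho = 0.58, permutation p 6.0e-05 and 0.00384, adjusted 0.000468 and 0.0250; r = 0.61 without control 6). Cox8b stood at r = 0.64 (rho = 0.56, permutation p 0.000320 and 0.00449, adjusted 0.00178 and 0.0250; r = 0.53 without control 6). Ppargc1a stood at r = 0.62 (rho = 0.54, permutation p 0.00403 and 0.0122, adjusted 0.0143 and 0.0473; r = 0.55 without control 6, adjusted 0.0600). For Cpt1b, Pdk4, Elovl3 and Cox7a1 r was 0.63, 0.62, 0.48 and 0.47, and 0.47, 0.45, 0.37 and 0.30 without control 6. The rho of Elovl3 and of Cox7a1 was 0.40 and did not pass (adjusted permutation p 0.156). Ucp1 stood lower, at r = 0.41 and rho = 0.33 (permutation p 0.0308 and 0.116, adjusted 0.0800 and 0.266), and at 0.25 without control 6. The groups differed: Ucp1 gave r = 0.92 in controls (0.83 without control 6), 0.29 with celecoxib and -0.36 with rofecoxib. Cox7a1 gave 0.95, 0.26 and -0.41, while Cidea stayed above 0 at 0.98, 0.51 and 0.40. Prdm16 stood at r = -0.18 over all libraries (permutation p 0.296, adjusted 0.482). None of the 20 relations of the genes with skeletal or cardiac muscle markers passed over all libraries, but the groups differed here too. With celecoxib r with the skeletal muscle markers was below 0 for all of the genes but Dio2 (0.10). It was -0.80 for Ucp1, -0.85 for Cox7a1 and -0.95 for Pdk4. The same genes gave 0.13, 0.16 and -0.04 in controls and -0.49, -0.30 and 0.67 with rofecoxib. Relations within a group were not tested.

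**Figure D4:**
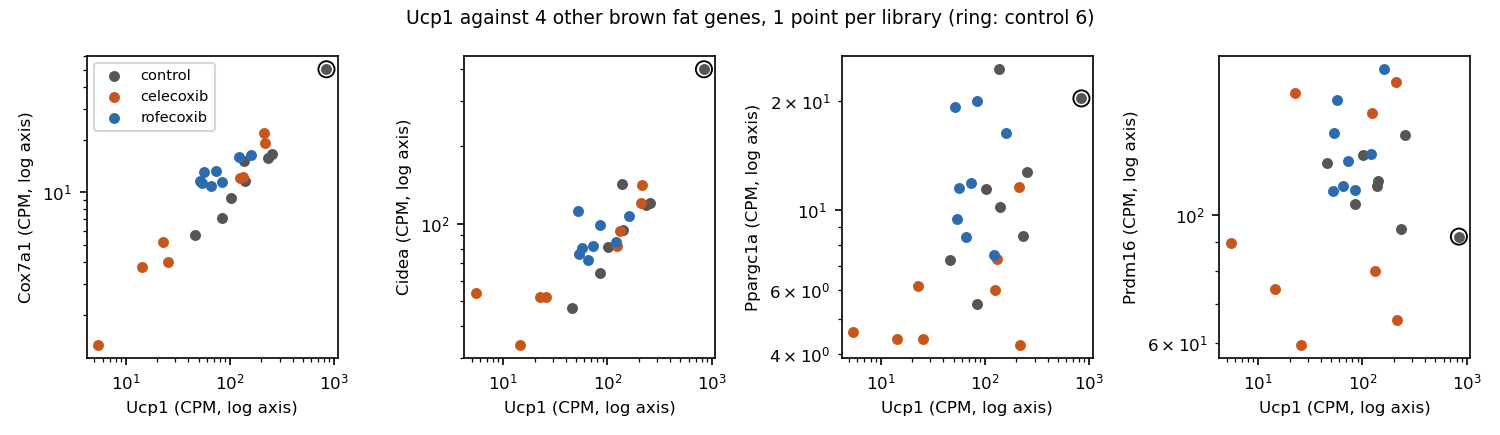
CPM of Cox7a1, Cidea, Ppargc1a and Prdm16 against that of Ucp1, all on log axes, 1 point per library colored by group, with control 6 ringed. Cox7a1 follows Ucp1 along a line through all 3 groups (r = 0.97 after centring on group means), while Prdm16 does not (r = 0.12).

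Ranked by Spearman's rho with Ucp1 over the same 24 group-centred libraries, Cox7a1 was 1st and Cox8b 4th of 14450 other genes, Cidea 21st, Cpt1b 26th and Elovl3 107th. Pdk4 ranked 740, Ppargc1a 1089, Dio2 2801 and Prdm16 6073, and Adipoq ranked 1537. Outside the 10 genes, those among the closest were Otop1, a proton channel gene (rho 0.945), Cpn2 (0.939), Shmt1 (0.921), Idh3a (0.920), Kng2 (0.918), Suclg1 (0.914), Ndufv1 (0.903), Fabp3 (0.899) and Acaa2 (0.893). Idh3a and Suclg1 encode subunits of enzymes of the citric acid cycle, Ndufv1 a subunit of respiratory complex I, and Acaa2 an enzyme of fatty acid oxidation. Without control 6 the rho of these genes ran from 0.889 to 0.933.

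The wider brown fat programme gave few calls against control. Of 29 other brown and beige markers 23 were tested, and neither edgeR nor DESeq2 called any with either drug. In edgeR 6 with celecoxib and 3 with rofecoxib had an unadjusted p under 0.05. Over all 14451 genes 2504 and 3916 had one, and edgeR called 1.41% and 5.3%. Their median log2 fold change was -0.35 with celecoxib and -0.15 with rofecoxib, and -0.10 and 0.00 without control 6. Otop1 was at 4.68 ± 3.66 CPM with celecoxib, 5.53 ± 1.63 CPM with rofecoxib and 11.3 ± 11.6 CPM in controls. Control 6 held 39.1 CPM of Otop1, against a control median of 8.79 CPM. Of the 18 general adipocyte markers and the 26 genes of PPAR alpha and fatty acid oxidation edgeR called none with either drug; DESeq2 called 1 of the latter with rofecoxib. For these lists 2 and 11 genes had an unadjusted p under 0.05 with celecoxib and 1 and 5 with rofecoxib, and their medians of -0.40 and -0.39 with celecoxib became -0.09 and -0.12 without control 6.

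In edgeR the lists for adrenergic signalling, thyroid hormone and heat production without Ucp1 gave 1 call each against control, all with rofecoxib. Over all genes edgeR called 5.3% with rofecoxib and 1.41% with celecoxib, so single calls in short lists say nothing of a list. An unadjusted p under 0.05 was found for 3916 and 2504 of the 14451 genes. Of 22 adrenergic and cyclic AMP genes tested, 1 fell with rofecoxib, Prkaca, a catalytic subunit of protein kinase A, with means of 97.1 ± 8.96 CPM against 117.2 ± 19.3 CPM in controls (-0.27 ± 0.08 on the log2 scale, edgeR adjusted p 0.0454), and this was not called without control 6 (adjusted p 0.0730). With celecoxib edgeR called none of the 22, against 10 at an unadjusted p under 0.05 and 2 in DESeq2. Of 9 thyroid hormone genes tested 1 was called lower with rofecoxib, Hr, a corepressor induced by thyroid hormone in the rodent brain, at -0.34 ± 0.09 (adjusted p 0.0317; 0.236 after GC correction). Of 11 genes of heat production without Ucp1, Ryr2, a calcium release channel that is also a heart muscle gene, rose with rofecoxib (0.47 ± 0.10, adjusted p 0.0174). With celecoxib edgeR called none of the thyroid hormone or heat production genes, 3 in each list had an unadjusted p under 0.05, and DESeq2 called none of the first and 2 of the second. None of the 21 transcription factors of brown fat was called against control by edgeR or DESeq2, with 2 at an unadjusted p under 0.05 with celecoxib and 6 with rofecoxib.

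Between the drug diets more genes of these lists were called, as in the table at large. P2rx5 was higher with celecoxib (0.33 ± 0.10, edgeR adjusted p 0.0223) and Tmem26 lower (-0.46 ± 0.16, adjusted p 0.0360) among the 23 brown and beige markers, and Plin4 was higher (0.24 ± 0.06, adjusted p 0.00843) among the 18 adipocyte markers. The share of all genes called between the diets, 22.7%, applies to each count here, and 6 of 22 or 5 of 21 lies near it. Of the 22 adrenergic and cyclic AMP genes 3 were higher with celecoxib (Adcy6, Mapk14 and Crtc2) and 3 lower (Atf2, Pde4d and Pde4b). Pde4d, a phosphodiesterase that breaks down cyclic AMP, was at 12.0 ± 3.29 CPM with celecoxib and 18.6 ± 3.42 CPM with rofecoxib (-0.63 ± 0.15, adjusted p 0.00725). Of 21 transcription factors 3 were higher (Tle3, Foxc2 and Rxra) and 2 lower (Mecom and Zfp516). Among the 26 genes of PPAR alpha and fatty acid oxidation edgeR and DESeq2 called none. None had an unadjusted p under 0.05 in edgeR, against 5201 of the 14451 genes tested.

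After correction for the GC content of transcripts 1395 genes were called in place of 3275, and Atf2, Pde4d, Tle3 and Zfp516 kept their calls among the 14 genes just named, while the other 10 did not. Among those 10 the log2 fold change of Foxc2 went from 0.22 to -0.02 and that of Rxra from 0.17 to 0.02. Others kept more of their size: Tmem26 went from -0.46 to -0.36, Pde4b from -0.47 to -0.39, Mapk14 from 0.20 to 0.16 and Mecom from -0.33 to -0.25. Thrb, a thyroid hormone receptor gene (-0.23), Hr (0.24) and Slc6a8, a creatine transporter gene (0.17), were also called between the diets and not after the correction. Ppargc1a, with a GC content of 41.7% in its exons, kept its call. Of the partner genes, Ucp2 (0.41) and Elovl1 (0.17) were higher and Mecom lower with celecoxib than with rofecoxib. None of the 3 was called after the correction, where Ucp2 stood at 0.31 and Elovl1 at 0.13.

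Markers of other cells moved with the groups as well. Of 12 smooth muscle markers, 4 rose with celecoxib (Actg2, Acta2, Tagln and Tpm2) and 3 with rofecoxib (Tagln, Acta2 and Actg2), against 0.913% and 2.43% of all genes called higher. Without control 6 there were 2 and 1. Their summed level ran from 38366 to 51774 CPM in controls, 46343 to 57045 CPM with celecoxib and 47628 to 57388 CPM with rofecoxib. Of 10 skeletal muscle markers Tnnt3 rose with celecoxib (0.66 ± 0.16, edgeR adjusted p 0.0391), and the list's sum ran from 88.9 to 157.0 CPM in controls, 104.5 to 191.4 CPM with celecoxib and 119.0 to 182.5 CPM with rofecoxib. Of 9 cardiac muscle markers Hspb7 was called higher with celecoxib against control and against rofecoxib, and Ryr2 and Actc1 higher with rofecoxib against control. Without control 6 the edgeR adjusted p of Hspb7 against control was 0.0557 and that of Actc1 0.0619, so neither was called. After GC correction Hspb7 between the diets went from 0.29 to 0.13 (adjusted p 0.252) and the adjusted p of Actc1 against control was 0.0522. The sum of the cardiac list ran from 647.6 to 852.7 CPM in controls, 853.4 to 1099 CPM with celecoxib and 669.3 to 1413 CPM with rofecoxib. Hspb7 made up most of it, with means of 690 CPM in controls, 851 CPM with celecoxib and 698 CPM with rofecoxib. The sum therefore says little of the other cardiac markers. The second rofecoxib library held 207.3 CPM of Myh6, the heart muscle myosin, against 11.5 CPM or less in the celecoxib group. Ppargc1a is also used by heart and skeletal muscle; without that library its log2 fold change between the drug diets was -1.12 (adjusted p 0.0165), and the part of these cells in the other results was not tested.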

How the data were processed

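The authors deposited whole-number counts per gene for 24 libraries in 1 table with Ensembl identifiers, symbols and mm9 coordinates. The submitters' processing notes name CASAVA 1.8.2, STAR 2.5.1b and the build mm9. The sources used here state no counting tool, annotation or use of strand. Library totals lay within 0.164% of each other; the step that made them so is not given either, and if counts were scaled and not drawn at random, the error model for counts would not hold.

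Genes were tested with edgeR 4.0.16 in R 4.3.3: filterByExpr (14451 genes), TMM factors (0.959 to 1.03), and a robust quasi-likelihood fit with 1 mean per group over all 24 libraries. Benjamini-Hochberg adjustment ran over all genes tested, and an SE is the log2 fold change, without its sign, divided by the square root of F. Ratios within a library used log2 CPM with a prior count of 2. Exon lengths and GC content came from GENCODE M21, matched by Ensembl identifier for 24179 genes, 14075 of them tested. Correlations permuted libraries within groups. Of the genes listed 1 symbol, Pde4d, had more than 1 row, and the tested row was used. The fits were checked on simulated counts.

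The 10 genes, the 11 lists and the tests were chosen with earlier results of these data known. Named were all 10 genes, the called members of each list or its 3 smallest p-values, partner genes and the 10 genes most like Ucp1; the text gives part of these, and 1 gene of the last set is not reported here. Alternatives were DESeq2 1.42.0, other scaling, no filter, GC correction (lowess span 0.3), 2 groups alone, a replicate block and each library left out.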

Additional observations from a re-analysis of the deposited data

Results flagged for a closer look

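By Dixon's test for a single far value in a group of 8, 7 of 30 combinations of gene and group stood out. Chance gives about 1 in 20 only for independent combinations with normally spread values. Several of these genes vary together, so the 7 cannot be set against that rate. Control 6 accounted for 6 of the 7. It held 843 CPM of Ucp1 (next control 254), 399 CPM of Cidea (next 143), 141 CPM of Cox8b (next 51.4), 50.6 CPM of Cox7a1 (next 16.6), 8.51 CPM of Cpt1b (next 3.42) and 365 CPM of Pdk4 (next 196). Its general adipocyte markers were high as well (12669 CPM summed, against a control median of 4376), and Prdm16 was lower in it than in any other control (91.8 CPM). The seventh was the first celecoxib library, with 11.6 CPM of Ppargc1a against 7.32 CPM in the next. What set these libraries apart was not tested.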

How the results depend on the processing

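Of 2162 values recomputed under alternatives, 59 changed sign, 7 lost a call, 5 gained one and 7 counts moved by more than 1.5 times. With celecoxib against control the count of the 10 genes called went from 0 to 1 (Ppargc1a) under DESeq2 (-1.04) and under GC correction with the replicate block (-0.96, adjusted p 0.0407), and ran from 0 to 1 with each library left out. The replicate numbers did not pair the samples (correlation of deviations from -0.391 to 0.324), so the replicate block is an alternative alone. Under it Ppargc1a relative to adipocyte markers between the drug diets stayed at -1.16 with an adjusted p of 0.293, taking that count from 1 to 0; with 8 pairs the smallest p is larger than in the unpaired test. Ucp1 between the diets was -0.52 with the replicate block and -0.45 with GC correction and the block. With rofecoxib against control Cox7a1 was 0.02 with GC correction and the block, and Ppargc1a -0.07 with GC correction. Leaving out single libraries moved the partner ratios that passed between the diets from 0 to 1 (without the fifth rofecoxib library), and the correlations that passed from 14 to 8 (without control 6, where Ucp1 with Dio2 was -0.10). Estimates near 0 crossed it in leave-one-out fits. With celecoxib against control Prdm16 ran from -0.22 to 0.0. Between the diets Cox8b ran from -0.38 to 0.0, Cpt1b from -0.31 to 0.02, Elovl3 from -0.61 to 0.04 and Ucp1 from -0.13 to 0.38. With rofecoxib against control Cox7a1 ran from -0.46 to 0.17, Dio2 from -0.20 to 0.10, Pdk4 from -0.38 to 0.07 and Ppargc1a from -0.05 to 0.27. Relative to adipocyte markers, celecoxib against control gave Dio2 -0.19 to 0.05, Pdk4 -0.23 to 0.03 and Prdm16 -0.24 to 0.22, and rofecoxib against control Cidea -0.15 to 0.09, Cox8b -0.11 to 0.11 and Cpt1b -0.01 to 0.27. Elovl3 over Elovl6 ran from -0.19 to 0.10 with celecoxib, -0.50 to 0.05 with rofecoxib and -0.10 to 0.45 between the diets, Cox7a1 over Cox7a2 from -0.11 to 0.18 and Cpt1b over Cpt1a from -0.53 to 0.02 with rofecoxib. The causes were not tested. Over all genes, celecoxib against control gave 204 calls, 472 in DESeq2, 86 without the filter, 88 with 2 groups alone, 354 with GC correction and the block, and 42 to 312 with a library left out. Rofecoxib against control gave 766 calls, 1584 in DESeq2, 294 without the filter, 461 with 2 groups alone, 204 with GC correction, 168 with the block added, and 170 to 1121 with a library left out. Between the diets 3275 calls became 1395 with GC correction and 1503 with the block added. Counts of Elovl3 and Cpt1b were low, down to 2 and 7 in a library.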
